A study of Mus musculus with 30 samples.

Results

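The libraries described here are the 8 bulk RNA-sequencing libraries of Epcam+ lung epithelial cells that were exposed to vehicle or to IPFc, a cocktail of factors raised in the lungs of patients with idiopathic pulmonary fibrosis (IPF). They were taken from the sample labels, as every library of the Epcam+ fraction with either treatment, and make up 8 of the 30 libraries of the series. Each of 4 mice contributed 1 vehicle and 1 IPFc culture, and the response was tested across all genes. In the study, organoid cultures of Epcam+ cells and fibroblasts were exposed for 72 hours to vehicle, IPFc, an exacerbation cocktail (EC) or TGF-β, and both cell fractions were then sequenced separately. The cultures started from 300000 primary Epcam+ cells of adult wild type C57BL/6J mice, depleted of CD31+ and CD45+ cells, and an equal number of cells of CCL206, 1 mouse lung fibroblast line whose division had been stopped with mitomycin C. After exposure, Epcam microbeads were used once more to part the fractions. IPFc contained 9 factors at once, the type 2 cytokines IL-4 and IL-13 with the alarmins IL-33 and TSLP, the inflammatory cytokines TNFα and IL-1β, the chemokines CCL2 and IL-8, and TGF-β, at concentrations not given in the sources used here. EC held TNFα, IL-1β, IL-6 and a neutrophil chemokine, which the labels give as IL-8 and the study's methods, for mouse cells, as KC. TGF-β alone was given at 2 ng/ml. Fibroblasts were present and exposed in every culture, so that direct effects on epithelial cells and effects through the fibroblasts cannot be told apart.

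IL-4 and IL-13 act on epithelial cells through a shared receptor chain, Il4ra, and the transcription factor STAT6. In airways this signal is known for mucus production by goblet cells, for a change in ion transport and for secreted proteins of type 2 inflammation. IL-1β and TNFα act mainly through NF-κB, and TGF-β through SMAD proteins. The lung epithelium itself includes flat alveolar type 1 (AT1) cells for gas exchange, surfactant-producing alveolar type 2 (AT2) cells, and secretory club, ciliated and basal cells in the airways.

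The 8 libraries held between 12402492 and 20317181 reads counted on genes. Levels are given as CPM, the reads of a gene scaled to a common total of counted reads per library, as mean ± SD over 4 mice (n = 4, and 3 for TGF-β), and serve to compare libraries but not genes of different length. Epithelial genes were abundant throughout. Epcam, the surface protein used for sorting, was at 216, 217, 210.1 and 222 CPM in the vehicle and 233, 223, 245 and 248 CPM in the IPFc cultures of mice 1 to 4. The summed level of 31 leukocyte genes was 12.5 to 14.1 CPM in vehicle and 12.9 to 19.6 CPM in IPFc libraries, and the pan-leukocyte marker Ptprc did not exceed 0.341 CPM in a library. Fibroblast RNA was present in every library. From the ratio of fibroblast genes between each epithelial library and the fibroblast library of the same culture, fibroblasts contributed 9.60, 5.18, 4.14 and 5.02% of the RNA, as an estimate, in vehicle and 14.8, 16.1, 4.91 and 9.50% in IPFc libraries of mice 1 to 4. The fibroblast library for the vehicle culture of mouse 2 was not analysed here, and the mean of the other 3 stood in for it. The share was higher under IPFc in 4 of 4 mice, by 5.35 ± 4.21 percentage points (mean ± SD of the differences), and an exact two-sided sign-flip test over 4 mice gave the smallest p it allows, which is above 0.05. The difference was smallest in mouse 3. Values after subtraction of this share are therefore given for many results on genes that fibroblasts express, but not for all of them.

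Epithelial cells of IPFc-exposed cultures had 1065 differentially expressed genes (DEGs) against vehicle, 604 higher and 461 lower. Those were the genes with a Benjamini-Hochberg adjusted p-value (padj) under 0.05 in edgeR's quasi-likelihood test on the raw counts, with the mouse as a block, among 17927 tested genes. DEGs thus made up 5.94% of all tested genes, 3.37% higher and 2.57% lower, and this background applies to every list of genes described. More of the large changes were on the higher side. By more than 2-fold (absolute log2 fold change over 1), 207 genes rose and 78 fell. By more than 4-fold (over 2 on that scale), 56 rose and 16 fell, and 25 and 1 of these had a mean count over 50. By more than 8-fold, 18 rose and 5 fell. The median log2 fold change was 0.80 for the higher and -0.49 for the lower DEGs, and 0.00 for all genes. The pairing and single mice moved the counts. Without the block there were 274 DEGs, all among the 1065. There were 932 higher DEGs without mouse 3, and 283 lower DEGs without mouse 1 or 271 without mouse 4. After subtraction of the fibroblast share, 392 DEGs remained, 204 of them higher and 188 lower (2.24%, 1.17% and 1.07% of 17510 tested genes). All 204 higher and 152 of the 188 lower genes had been called before in the same direction, and 26 were new. The other 10 had been called higher and became lower, fitted on what remained of their counts. Among them were Col6a3, Hmga2 and Grem1, named here after their values were seen.

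**Figure D1:**
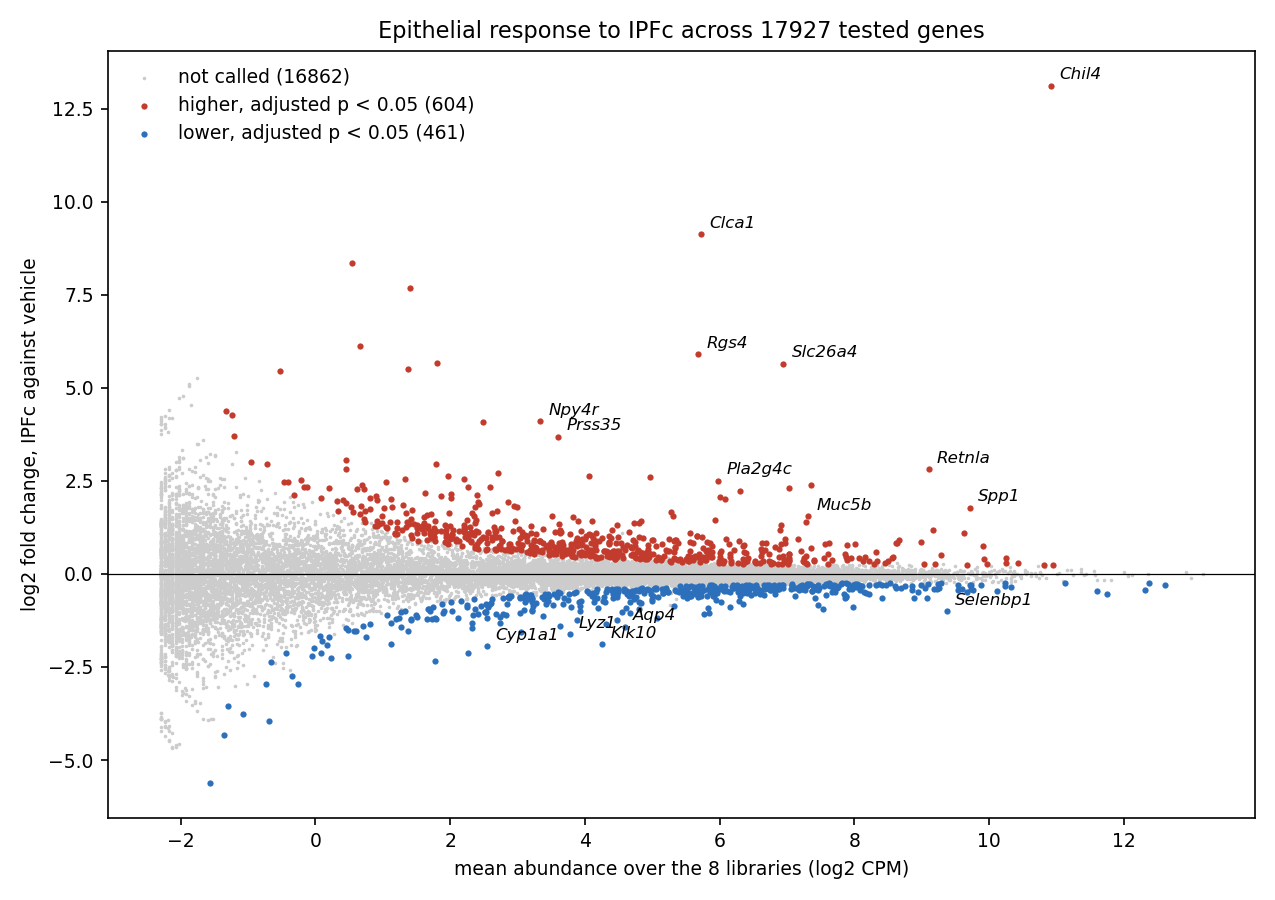
Log2 fold change of IPFc against vehicle (vertical axis) over mean abundance in log2 CPM (horizontal axis) for each of 17927 tested genes, with 604 higher DEGs in red and 461 lower DEGs in blue. Chil4, Clca1, Slc26a4 and Rgs4 are labelled among the higher DEGs, with log2 fold changes of 13.12, 9.14, 5.65 and 5.91.

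In a principal component analysis of the 500 genes with the largest variance, treatment accounted for 99.2% of the first component, which held 37.1% of the variance. Vehicle libraries lay between -17.7 and -15.7 and IPFc libraries between 13.9 and 19.6. The second component, with 27.2% of the variance, set both cultures of mouse 4 apart, at -24.4 and -23.1, from the other 3 mice at -0.03 to 15.1. In mouse 4, Krt5, the keratin of airway basal cells, was at 13.4 CPM in the vehicle culture, and it was at 220.2 to 732 CPM in the vehicle cultures of the other mice.

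The largest response was that of Chil4, which encodes a secreted chitinase-like protein of type 2 inflammation. It had 4, 12, 9 and 1 reads in the vehicle cultures of mice 1 to 4 and 54239, 77958, 61733 and 35731 reads in their IPFc cultures. These were 4328, 4546, 3987 and 2775 CPM, and Chil4 thereby went from nearly silent to between 0.277 and 0.455% of all counted reads (log2 fold change 13.12, SE 0.16, padj 7.7e-30). Clca1, a secreted protein of goblet cells, was at 0.205, 0.160, 0.295 and 0 CPM in vehicle and 117, 141, 123 and 39.6 CPM in IPFc libraries (log2 fold change 9.14, SE 0.19, padj 9.2e-24). Both genes were close to absent in every vehicle library and high in all 4 IPFc libraries, lowest in mouse 4. Slc26a4, the apical chloride and bicarbonate exchanger pendrin, was at 5.19, 4.17, 3.84 and 5.89 CPM in vehicle and 164, 253, 304 and 242 CPM in IPFc libraries (log2 fold change 5.65, SE 0.14, padj 1.4e-21). Retnla, a secreted resistin-like protein, was already well expressed in vehicle libraries, at 92.7, 151, 164 and 128 CPM, and reached 629, 1331, 1092 and 818 CPM under IPFc (log2 fold change 2.82, SE 0.08, padj 4.9e-20). The groups did not overlap for any of these 4 genes, as for 1222 (6.82%) of all tested genes, 3.27% higher and 3.54% lower. Carry-over of fibroblast RNA, expected from the share and the fibroblast library, amounted to 0.776% of the observed difference for Chil4, 0.639% for Clca1, 3.79% for Slc26a4 and 2.53% for Retnla. Several of these genes are also known from macrophages, whose markers Adgre1, C1qa, Siglecf and Marco were below the count filter of the test. Of the 11 leukocyte genes that were tested, 1 was called higher, the integrin chain Itgb2, from 1.79 ± 0.869 to 4.29 ± 1.90 CPM (log2 fold change 1.23, padj 0.0047), with an expected carry-over of 87.1% and no call after subtraction (log2 fold change 1.71).

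**Figure D2:**
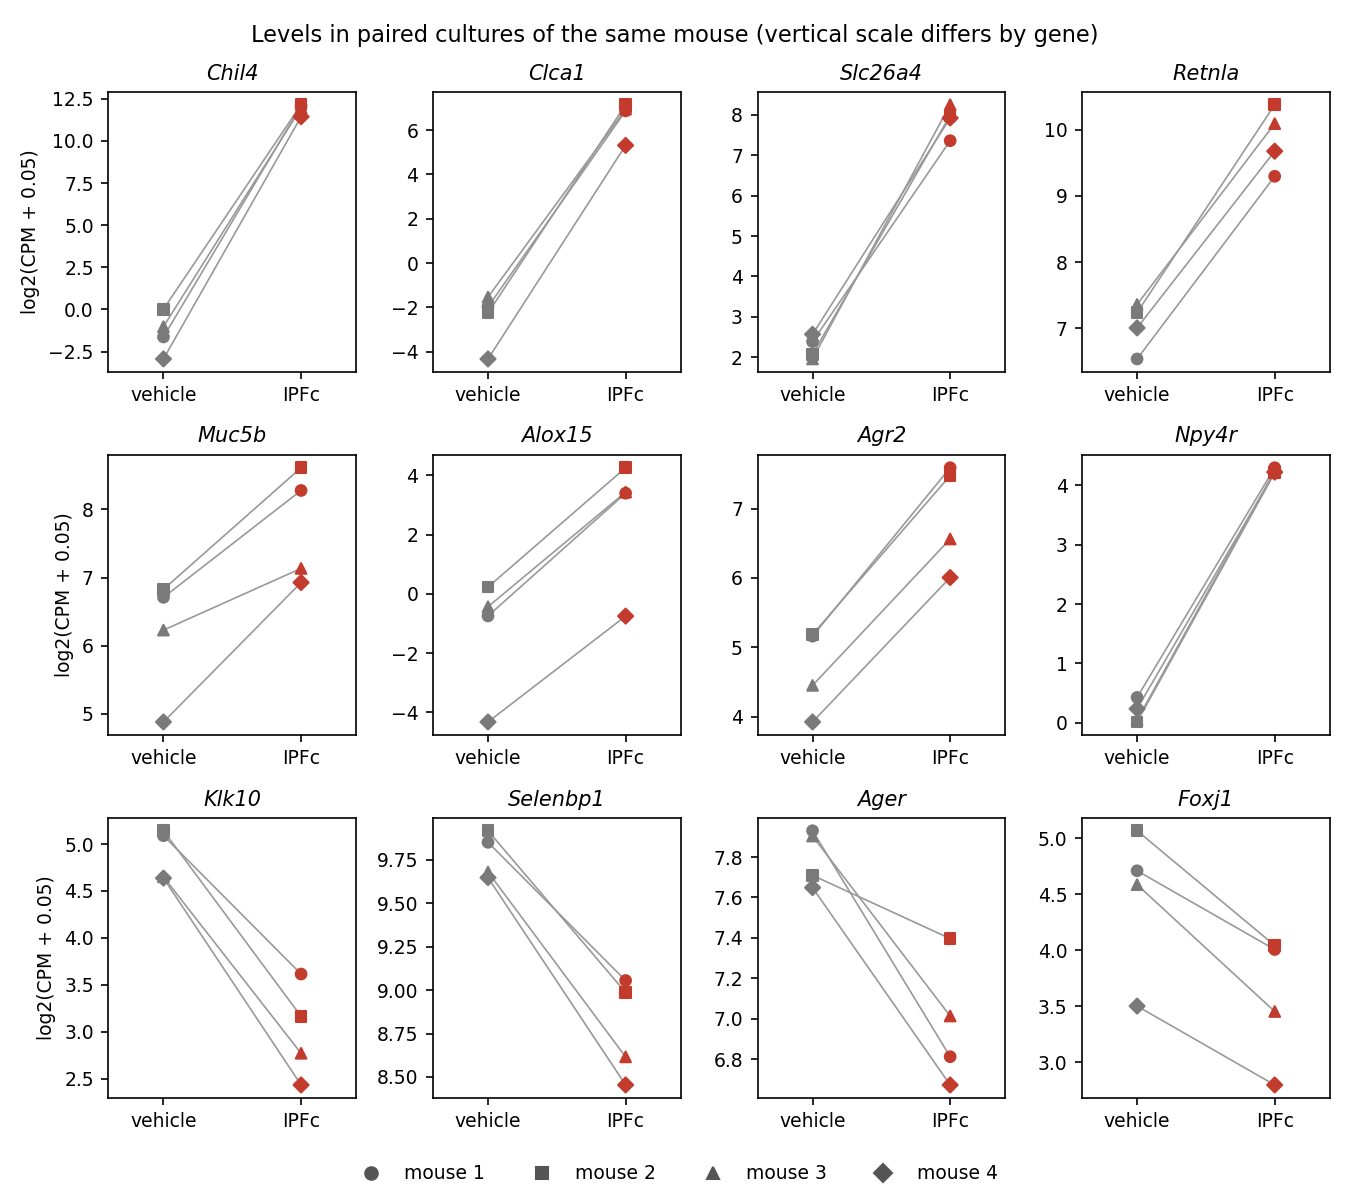
Level of 12 genes as log2(CPM + 0.05) in the vehicle (grey) and IPFc (red) cultures, with a line joining the cultures of 1 mouse and a symbol for each mouse. The first 8 genes were higher and the last 4 (Klk10, Selenbp1, Ager and Foxj1) lower under IPFc in all 4 mice.

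Most IL-4 and IL-13 response genes changed, and mainly upwards. Of 29 tested members, 19 were called higher and 4 lower, and the median log2 fold change was 1.00, beside 0.00 over all genes. By mouse, the median was 0.67, 1.25, 1.20 and 1.11 in mice 1 to 4. Alox15, the lipoxygenase that is induced by IL-13 in airways, rose from 0.589 ± 0.463 to 10.2 ± 7.55 CPM (log2 fold change 4.08, SE 0.27, padj 6.7e-12), although its IPFc level in mouse 4 was 0.544 CPM and overlapped the vehicle libraries. Cish, a feedback inhibitor of cytokine signalling, rose from 14.6 ± 5.29 to 29.7 ± 10.4 CPM (log2 fold change 1.00, padj 2.7e-05), while Socs1, another such inhibitor, had a log2 fold change of 0.08 (padj 0.97). Receptor chains rose too. Il4ra went from 241 ± 31.2 to 333 ± 41.7 CPM (log2 fold change 0.46, padj 1.0e-04), and kept its call after subtraction, whereas those for Il13ra1 (log2 fold change 0.46 before and 0.27 after) and for the decoy receptor Il13ra2 (1.73 before and 1.44 after) were lost. Il13ra2 was at 1.91, 0.881, 0.591 and 1.53 CPM in vehicle and 3.11, 2.74, 6.01 and 4.04 CPM in IPFc libraries. The 4 members that fell were Gcnt3, a mucin glycosyltransferase, the pantetheinase Vnn1, the protease inhibitor Serpinb2 and Arg1, of which Vnn1 was not called without mouse 4 and Serpinb2 not without mouse 1, 2 or 4. Arg1, an arginase known from macrophages in type 2 inflammation, was at 7.50, 8.33, 6.74 and 6.05 CPM in vehicle and 3.99, 3.97, 5.94 and 2.72 CPM in IPFc libraries (log2 fold change -0.81, padj 0.012 in edgeR's quasi-likelihood test, but 0.074 without mouse 1 and 0.091 without mouse 4). The count of lower members was 2 without mouse 1 and 1 without mouse 4. Postn, Ccl24, Ccl17 and Nos2 did not reach the count filter. After subtraction of the fibroblast share, 16 members were higher and 1 was lower, against a background of 2.24% of genes called.

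Some of these genes have near-identical copies that share reads. Chil3, a paralogue of Chil4 on the same chromosome, rose from 0.136 ± 0.273 to 6.65 ± 1.52 CPM (log2 fold change 5.65, padj 1.3e-09), but its reads were only 0.131 to 0.203% of those of Chil4 in the IPFc libraries, so that a small misassignment of Chil4 reads would give the same values. Sprr2a3, a small proline-rich protein of the cornified envelope, rose from 44.0 ± 10.2 to 217 ± 43.8 CPM (log2 fold change 2.30, SE 0.08, padj 1.2e-17), and its copies Sprr2a1 and Sprr2a2, whose reads were 0.977 to 1.89% of those of Sprr2a3, carry the same uncertainty.

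STAT6 is known to bind the palindrome of TTC and GAA with 4 bases of any kind between them. Other STAT proteins are known to bind that with 3 bases between. Promoters are shown for some genes only, chosen because they held a match. Of the 15 higher DEGs with the smallest padj among those with a log2 fold change over 1 and a rise in each mouse, 13 were in the RefSeq promoter table (GRCm38.p6, 250 bases before to 50 after each start), and 6 of them had either word in a promoter, 3 the longer and 4 the shorter one. Over all 32851 promoters of that table, 6.95% held the longer, 8.30% the shorter and 14.57% either word. These percentages count single promoters, whereas a gene was counted over all its starts, so the shares are not like measures. Both words are palindromes, so 1 search covers both strands, and matches that overlap were each counted. Capitals mark each match. Chil3, which is not among the 15, is shown beside its copy Chil4. In Chil4 and Chil3 the match was the same 9 bases, in Retnla it began 145 bases before the start, and Sprr2a3 held both words.
Chil4, chr3:106219430-106219729, minus strand: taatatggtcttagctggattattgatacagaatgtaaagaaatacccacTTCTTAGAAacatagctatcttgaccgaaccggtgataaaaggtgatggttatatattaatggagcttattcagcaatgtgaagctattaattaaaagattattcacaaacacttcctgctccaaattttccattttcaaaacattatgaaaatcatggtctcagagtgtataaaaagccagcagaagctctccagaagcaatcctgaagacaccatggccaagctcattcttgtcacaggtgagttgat
Chil3, chr3:106167515-106167814, minus strand: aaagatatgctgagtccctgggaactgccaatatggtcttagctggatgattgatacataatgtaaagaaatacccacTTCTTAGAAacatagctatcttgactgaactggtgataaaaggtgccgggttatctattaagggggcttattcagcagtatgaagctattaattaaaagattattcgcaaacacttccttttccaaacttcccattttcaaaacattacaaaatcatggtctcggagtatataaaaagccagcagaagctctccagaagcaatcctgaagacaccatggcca
Retnla, chr16:48842359-48842658, plus strand: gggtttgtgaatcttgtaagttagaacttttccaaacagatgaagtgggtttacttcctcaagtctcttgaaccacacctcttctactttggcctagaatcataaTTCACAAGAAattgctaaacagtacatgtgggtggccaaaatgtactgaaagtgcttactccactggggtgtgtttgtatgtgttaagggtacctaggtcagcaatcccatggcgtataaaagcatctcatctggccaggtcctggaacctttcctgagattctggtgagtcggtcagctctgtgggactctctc
Sprr2a3, chr3:92285054-92285353, plus strand: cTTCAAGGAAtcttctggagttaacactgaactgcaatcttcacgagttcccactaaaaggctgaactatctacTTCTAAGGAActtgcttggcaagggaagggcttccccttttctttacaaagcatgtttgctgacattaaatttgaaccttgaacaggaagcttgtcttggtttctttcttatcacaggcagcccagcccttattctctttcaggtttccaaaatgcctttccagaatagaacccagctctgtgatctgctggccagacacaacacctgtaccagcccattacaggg
The remaining genes of the 15 with neither word included Slc26a4, Agr2 and Rgs4. A match is a description of the letters and not evidence of binding.

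Genes of mucus and of secretory cells rose in part. Of 27 tested goblet cell and mucin genes, 9 were called higher and 3 lower (median log2 fold change 0.30). The gel-forming mucin Muc5b was at 105, 114, 75.0 and 29.4 CPM in vehicle and 310.2, 391, 140.4 and 122 CPM in IPFc libraries (log2 fold change 1.56, SE 0.11, padj 8.9e-11). It was higher in 4 of 4 mice, least so in mouse 3. Muc5ac, the gel-forming mucin most often used as a goblet cell marker, stayed near the limit of detection, at 0.750, 0.881, 1.08 and 0.242 CPM in vehicle and 2.07, 2.10, 1.29 and 0.544 CPM in IPFc libraries (log2 fold change 0.98, padj 0.27). Agr2, a disulfide isomerase needed for mucin folding, rose from 27.3 ± 10.5 to 132 ± 62.6 CPM (log2 fold change 2.23, SE 0.09, padj 2.1e-16), Fcgbp, a mucus-binding protein, from 4.32 ± 2.51 to 28.6 ± 21.0 CPM (log2 fold change 2.63, padj 5.8e-12), and Creb3l1, a transcription factor of the secretory pathway, from 26.4 ± 3.12 to 109 ± 31.5 CPM (log2 fold change 2.01, padj 9.2e-14). The goblet cell transcription factors Spdef (0.26, padj 0.79) and Foxa3 (-0.42, padj 0.9) did not pass the test at levels under 4 CPM. Tff1, a trefoil peptide secreted with mucus, fell from 7.17 ± 2.83 to 2.53 ± 0.746 CPM (log2 fold change -1.46, padj 1.5e-04).

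Most called genes of secreted defence proteins were higher. Among 22 tested genes of this list, 11 were called higher and 2 lower (median log2 fold change 0.43), and 8 and 1 after subtraction. Bpifb1, a lipid-binding protein of airway secretions, was at 58.9, 74.8, 57.6 and 23.2 CPM in vehicle and 358, 349, 243 and 150.4 CPM in IPFc libraries (log2 fold change 2.38, SE 0.10, padj 1.1e-16). Pigr, which carries immunoglobulin A across epithelia, was at 27.6, 44.5, 21.4 and 8.06 CPM in vehicle and 132, 156, 85.6 and 41.5 CPM in IPFc libraries (log2 fold change 2.08, SE 0.10, padj 9.2e-15). For Pigr the group ranges overlapped, since the IPFc level of mouse 4 lay below the vehicle level of mouse 2, while the level rose within each mouse. Bpifa1, another secreted airway protein, rose from 358 ± 134 to 793 ± 221 CPM, Ltf, the iron-binding lactoferrin, from 733 ± 269.8 to 1205 ± 367 CPM, Reg3g, an antibacterial lectin, from 102 ± 62.2 to 188 ± 91.3 CPM, and Chil1, a chitinase-like protein, from 84.6 ± 5.15 to 227 ± 57.2 CPM, with log2 fold changes of 1.17, 0.74, 0.95 and 1.38 (padj at most 4.1e-08). C3, the central complement component, rose by a log2 fold change of 0.84, and 84.5% of that difference was expected from carry-over. After subtraction its log2 fold change was 0.33, and C3 was still called higher. Haptoglobin (Hp) fell from 658 ± 109 to 418 ± 45.3 CPM (log2 fold change -0.65, padj 2.8e-07).

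Targets of NF-κB, which IL-1β and TNFα in the cocktail activate, changed little after 72 hours. Of 39 tested members, 5 were called higher and 1 lower (median log2 fold change 0.07), and none was called after subtraction. Without mouse 2 or without mouse 4, 2 were called higher and none lower. Tnfaip3, a feedback inhibitor of NF-κB, was at 29.4, 46.5, 70.4 and 108 CPM in vehicle and 30.2, 58.5, 63.4 and 96.4 CPM in IPFc libraries (log2 fold change 0.00, padj 1). Icam1, an adhesion molecule, had a log2 fold change of -0.05 (padj 0.86) and Nfkbia, the NF-κB inhibitor IκBα, of -0.19 (padj 0.28). The neutrophil-attracting chemokine Cxcl5 rose from 85.1 ± 30.4 to 139.7 ± 43.5 CPM (log2 fold change 0.71, padj 1.1e-05), and this call held after subtraction. The monocyte-attracting chemokines Ccl2, Ccl7 and Ccl8 were called higher too (log2 fold changes 1.12, 1.88 and 2.46), but the carry-over expected for them was 113, 80.9 and 140.4% of the observed difference, and after subtraction Ccl8 could no longer be tested and neither Ccl2 nor Ccl7 was called, with log2 fold changes of -6.45 and 2.50. No interferon-stimulated gene was called after subtraction, and 1 of 30 (Iigp1) before it, a call that was lost without mouse 2.

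TGF-β targets gave more calls before than after subtraction. Of 40 tested members, 12 were called higher and 1 lower (median log2 fold change 0.12), but 3 higher and 1 lower after subtraction. The 3 were Pmepa1, Bhlhe40 and Acta2. The lower one was Hmga2, which had been called higher before subtraction (log2 fold change 0.81). Its value after subtraction, -8.41, was fitted on what remained of its counts and does not show a fall. Pmepa1, which dampens SMAD signalling, was at 26.0, 27.6, 39.5 and 38.1 CPM in vehicle and 74.9, 72.9, 106 and 104 CPM in IPFc libraries (log2 fold change 1.44, SE 0.09, padj 2.4e-12). Bhlhe40, a transcriptional repressor, rose from 90.7 ± 8.39 to 145 ± 15.7 CPM and Acta2, smooth muscle actin, from 5.17 ± 0.996 to 13.2 ± 5.39 CPM (log2 fold changes 0.67 and 1.29). The feedback inhibitor Smad7 did not pass the test (log2 fold change 0.12, padj 0.75). Matrix genes on the list rose with the fibroblast share. Fn1, fibronectin, was at 747, 401, 419 and 425 CPM in vehicle and 1421, 1419, 614 and 936 CPM in IPFc libraries (log2 fold change 1.10, padj 7.8e-08), and Lox, a collagen-crosslinking enzyme, rose by a log2 fold change of 1.41. Expected carry-over was 108% of the difference for Fn1 and 112% for Lox, and neither was called after subtraction, where the log2 fold change was 0.89 for Fn1 and -0.40 for Lox.

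Fibroblast genes moved with the share, which was itself estimated from genes of this list. Their agreement with it, and their lost calls after subtraction, are therefore not separate evidence. Of 30 tested fibroblast genes, 18 were called higher and none lower, with a median log2 fold change of 0.71, and after subtraction 1 was called higher and 1 lower of 24 tested, while the median of those 24 was 0.93, fitted on the small counts that remained. By mouse, the median was 0.64, 1.46, 0.14 and 0.60, smallest in mouse 3. Over all 604 higher DEGs, the expected carry-over reached at least 50% of the observed difference in 307. One of them was Spp1, the secreted phosphoprotein osteopontin and one of the 15 genes with the smallest padj. It was at 472, 311, 301 and 395 CPM in vehicle and 1673, 1610.0, 753 and 1236 CPM in IPFc libraries (log2 fold change 1.78, SE 0.10, padj 4.6e-13), and at 14101 CPM in the fibroblast libraries of the IPFc cultures. The mesenchymal regulators Zeb1 and Zeb2 were called higher as well (log2 fold changes 1.12 and 1.19) with an expected carry-over of 109 and 152%. The call for Zeb1 was lost after subtraction. The epithelial cadherin Cdh1 had a log2 fold change of -0.08 (padj 0.7). The other 14 of the 15 top higher genes and all 15 of the top lower genes kept their call after subtraction.

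**Figure D3:**
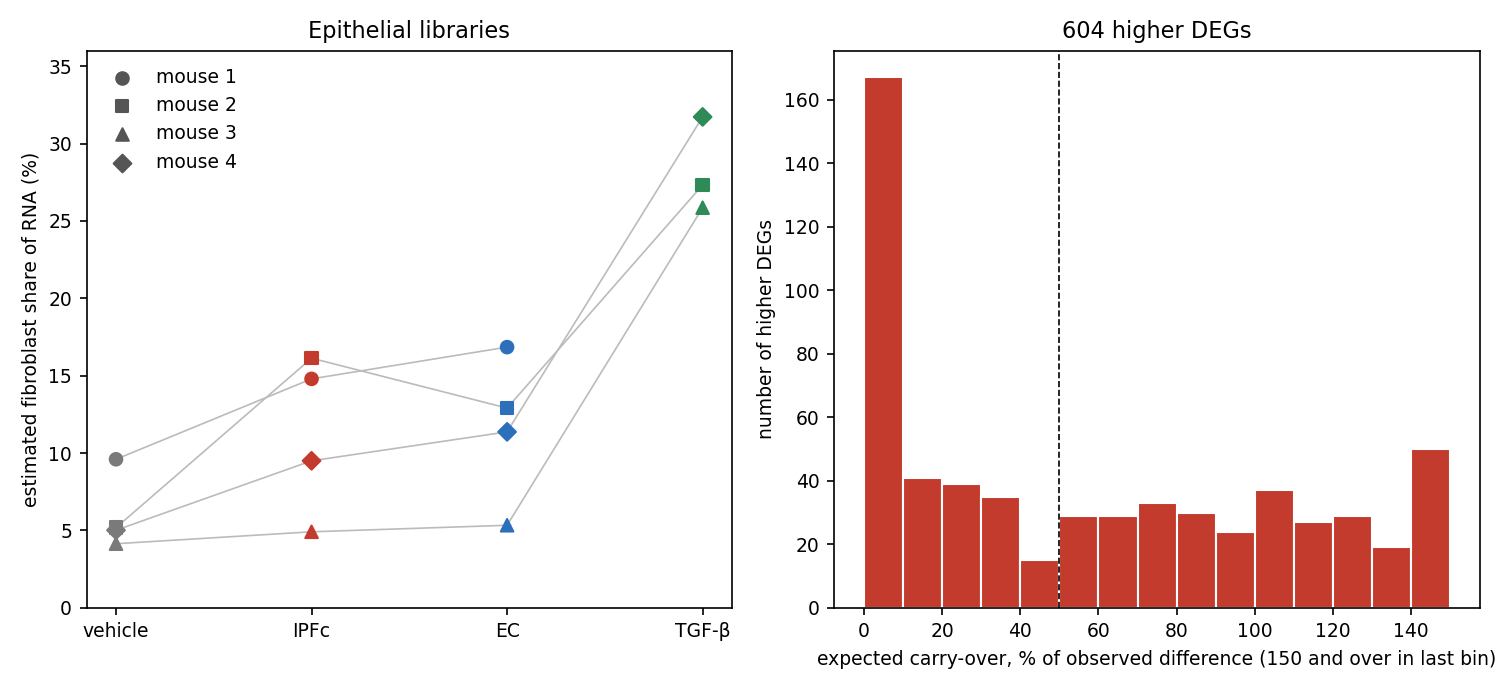
Left, estimated fibroblast share of RNA in percent in each of the 15 epithelial libraries by treatment, with a line joining the cultures of 1 mouse. Right, number of the 604 higher DEGs by the carry-over expected from that share as a percent of the observed difference (0 and below in the first bin), of which 307 lie at 50% or more.

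Markers of AT1 cells fell in part. None of 25 tested AT1 cell genes was called higher and 14 were called lower, with a median log2 fold change of -0.42. In bulk libraries, fewer cells of a type and less RNA per cell cannot be told apart. Ager, the receptor RAGE that marks AT1 cells, was at 244, 209, 239 and 201 CPM in vehicle and 112, 168, 129 and 102 CPM in IPFc libraries (log2 fold change -0.83, SE 0.10, padj 6.5e-07). Emp2, a membrane protein of AT1 cells, fell from 577 ± 21.6 to 412 ± 13.5 CPM and Akap5, a kinase-anchoring protein, from 166 ± 28.4 to 111 ± 17.5 CPM (log2 fold changes -0.49 and -0.60). Lower without overlap of the groups were 11 of the 25 genes, beside 3.54% of all tested genes. After subtraction, 7 members were still called lower, with a median of -0.41. Other AT1 markers did not pass the test, among them Cav1 (-0.25, padj 0.15) and Vegfa (0.05, padj 0.91).

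AT2 cell genes were mixed, with 3 higher and 9 lower of 26 (median log2 fold change -0.13). The surfactant protein Sftpc fell from 4058 ± 632 to 2834 ± 726 CPM (log2 fold change -0.55, padj 1.0e-04) and Sftpb from 5856 ± 954 to 4348 ± 683 CPM (-0.44, padj 5.6e-04), but not in every mouse by a like amount. In mouse 2, Sftpc was at 3709 CPM in the vehicle and 3711 CPM in the IPFc culture. The surfactant collectin Sftpa1 moved the other way, from 838 ± 81.5 to 1115 ± 126 CPM (log2 fold change 0.40, padj 0.0016), as did Il33, an alarmin that was also a component of the cocktail, from 157 ± 32.1 to 231 ± 59.4 CPM (0.54, padj 4.6e-04). Lyz1, a lysozyme, was at 15.4, 19.1, 22.6 and 24.1 CPM in vehicle and 6.54, 7.06, 4.97 and 8.15 CPM in IPFc libraries (log2 fold change -1.61, SE 0.16, padj 2.5e-08). Lyz1 and S100g, a calcium-binding protein (31.1 ± 6.91 to 15.5 ± 3.87 CPM), were the only 2 members still called lower after subtraction, while all 3 higher members (Sftpa1, Il33 and Fabp5) remained called.

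Genes of club, ciliated, and basal and hillock cells of the airways were more often called lower than higher. The median log2 fold change was -0.35 for club, -0.40 for ciliated and -0.41 for basal and hillock cell genes. Of 23 club cell genes, 7 were called lower and 3 (Aldh1a7, Cbr2 and Cldn10) higher, and 5 and 3 after subtraction. Selenbp1, a selenium-binding protein, was at 924, 968, 820.5 and 802 CPM in vehicle and 532, 507, 392 and 351 CPM in IPFc libraries (log2 fold change -1.004, SE 0.08, padj 1.9e-10), and the club cell secretoglobin Scgb1a1 fell from 991 ± 171 to 737 ± 169.9 CPM (log2 fold change -0.44, padj 4.8e-04), a call lost after subtraction, at -0.35. Of 29 ciliated cell genes, 5 were called lower, or 3 without mouse 3, and 1 higher, and 3 and 1 after subtraction. The higher gene was Pifo, with log2 fold changes of 1.02 to 1.55 when 1 mouse was left out. Foxj1, the master regulator of motile cilia, was at 26.1, 33.5, 24.0 and 11.3 CPM in vehicle and 16.0, 16.4, 10.9 and 6.91 CPM in IPFc libraries (log2 fold change -0.91, SE 0.13, padj 1.9e-05), and Ccno, a regulator of centriole amplification, fell from 8.95 ± 1.93 to 4.07 ± 1.12 CPM (log2 fold change -1.15, padj 1.4e-04). Structural cilia genes on the list were mixed at these low levels. Lrrc23, a protein of the axoneme, fell from 3.03 ± 1.60 to 0.848 ± 0.567 CPM (log2 fold change -1.89, padj 8.6e-04) and Ccdc40, needed for its assembly, from 3.95 ± 1.14 to 2.07 ± 0.636 CPM (-0.94, padj 0.031, but 0.21 without mouse 1 and 0.14 without mouse 3), while Dnah5 (-0.01, padj 1) and Tekt1 (0.05, padj 0.99) did not pass the test. Of 17 basal and hillock cell genes, 8 were called lower and 1 higher, and 3 and none after subtraction. The higher gene was Trp63, with log2 fold changes of 0.50 to 0.94 when 1 mouse was left out. Its call was lost without mouse 1 or mouse 4. Krt5 fell in each mouse, from 220.2, 732, 371 and 13.4 to 177, 344, 159.7 and 7.14 CPM (log2 fold change -0.89, SE 0.11, padj 1.5e-06), and Krt15, another basal cell keratin, fell from 84.9, 177, 154 and 10.2 to 56.5, 85.8, 73.7 and 8.78 CPM (log2 fold change -0.80, padj 7.6e-06). Their levels ranged more widely between mice than within a mouse, and neither Krt5 nor Krt15 was called without the block. Krt8 and Krt18, the keratins of simple epithelia, had log2 fold changes of 0.11 (padj 0.53) and 0.19 (padj 0.13).

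**Figure D4:**
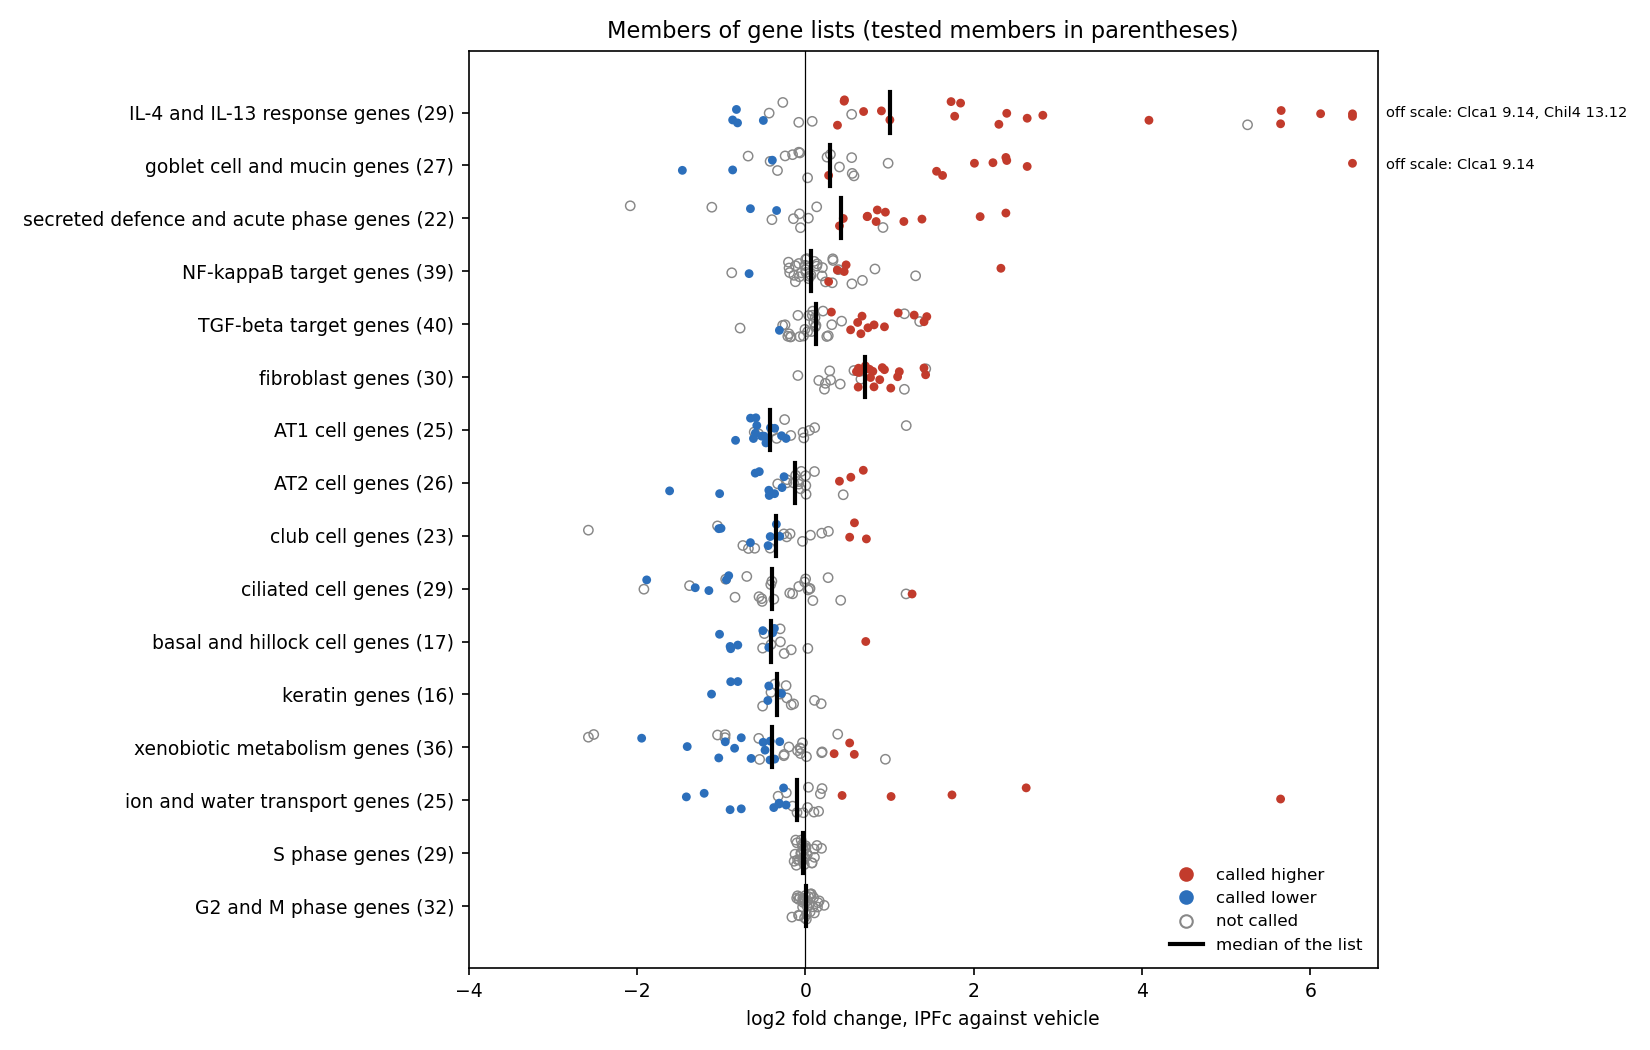
Log2 fold change of IPFc against vehicle (horizontal axis) for each tested member of 16 gene lists, filled where the gene was called and open where it was not, with the median of each list as a bar. IL-4 and IL-13 response genes have a median of 1.00, AT1 cell genes of -0.42, and the 29 S phase and 32 G2 and M phase genes gather around 0 with none called.

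Transport of ions and water shifted in both directions. Of 25 tested transport genes, 5 were called higher and 9 lower, and 4 and 2 after subtraction of the fibroblast share. Besides Slc26a4, the higher genes included Slc5a1, a sodium and glucose cotransporter, from 1.00 ± 0.163 to 6.41 ± 2.79 CPM (log2 fold change 2.62, padj 5.5e-08), Car2, a carbonic anhydrase, from 13.4 ± 2.19 to 27.2 ± 4.41 CPM (1.02, padj 2.8e-06), and Slc4a2, a basolateral anion exchanger, from 159.6 ± 14.0 to 217 ± 20.5 CPM (0.43, padj 4.0e-04). Outside the list, Atp6v1b1, a subunit of the proton pump of acid-secreting cells that was among the 15 top genes, was at 12.6, 12.3, 6.99 and 3.79 CPM in vehicle and 80.1, 65.7, 40.3 and 28.6 CPM in IPFc libraries (log2 fold change 2.60, SE 0.12, padj 2.2e-15). Among the lower genes, the water channel Aqp4 was at 35.5, 37.6, 39.4 and 24.1 CPM in vehicle and 13.2, 18.3, 17.0 and 5.36 CPM in IPFc libraries (log2 fold change -1.42, SE 0.14, padj 3.5e-08), and Wnk4, a kinase outside the list that regulates salt transporters, fell from 46.2 ± 5.09 to 20.5 ± 2.82 CPM (log2 fold change -1.19, padj 2.9e-08). All 3 subunits of the epithelial sodium channel were called lower, Scnn1a from 159 ± 25.3 to 123 ± 12.2 CPM, Scnn1b from 4.09 ± 1.58 to 1.74 ± 0.346 CPM and Scnn1g from 11.4 ± 2.77 to 6.70 ± 1.23 CPM, with log2 fold changes of -0.38, -1.20 and -0.76. The padj of Scnn1a was 0.059 without mouse 1 and that of Scnn1b 0.06 without mouse 3, and after subtraction none of the 3 was called, with log2 fold changes of -0.29, -1.14 and -0.67. The chloride channels Cftr (-0.10, padj 0.81) and Ano1 (-0.03, padj 0.95) did not pass the test. In all, the number of transport genes called lower was 5 without mouse 1 or without mouse 4.

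Xenobiotic metabolism leaned lower. Of 36 tested genes, 13 were called lower and 3 higher (median log2 fold change -0.39), and 9 and 2 after subtraction. The count of lower members was 8 without mouse 1. Cyp1a1, a target of the aryl hydrocarbon receptor, varied widely between mice, with 16.9, 10.3, 3.15 and 5.72 CPM in vehicle and 5.59, 3.27, 0.775 and 0.621 CPM in IPFc libraries (log2 fold change -1.95, SE 0.23, padj 9.7e-07). Its groups overlapped, but it fell in each mouse. Aldh3a1, an aldehyde dehydrogenase, fell from 244 ± 62.9 to 129 ± 44.0 CPM (log2 fold change -0.95, padj 1.4e-09), Ces1g, a carboxylesterase, from 17.5 ± 2.43 to 6.74 ± 1.99 CPM (-1.41, padj 6.5e-07), and the glutathione transferase Gsta4 from 331 ± 66.4 to 237 ± 39.8 CPM (-0.48, padj 1.2e-04). Cyp1b1 rose from 321 ± 54.6 to 405 ± 28.5 CPM (0.34, padj 0.0042).

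The remaining genes with the smallest padj in each direction came from several families. Rgs4, a regulator of G protein signalling, was at 1.64, 0.401, 2.26 and 2.18 CPM in vehicle and 45.8, 49.0, 190.4 and 115 CPM in IPFc libraries (log2 fold change 5.91, SE 0.18, padj 4.9e-20). Its IPFc level varied between mice far more than that of Npy4r, a receptor of pancreatic polypeptide, which was at 1.30, 0.961, 0.984 and 1.13 CPM in vehicle and 19.6, 18.4, 18.9 and 18.6 CPM in IPFc libraries (log2 fold change 4.10, SE 0.19, padj 2.9e-15). Prss35, an inactive serine protease, rose from 1.70 ± 0.668 to 22.3 ± 2.89 CPM (log2 fold change 3.69, padj 1.5e-14) and Pla2g4c, a phospholipase that can release arachidonic acid, from 18.3 ± 2.64 to 108 ± 35.6 CPM (2.51, padj 5.0e-13). Among the lower genes, the kallikrein-related proteases Klk10 and Klk13 fell together. Klk10 was at 34.0, 35.2, 25.1 and 24.8 CPM in vehicle and 12.2, 8.92, 6.78 and 5.36 CPM in IPFc libraries (log2 fold change -1.88, SE 0.14, padj 7.3e-11), and Klk13 fell from 20.4 ± 2.80 to 8.70 ± 1.34 CPM (log2 fold change -1.24, padj 4.2e-07). Itga7, a laminin-binding integrin chain, fell from 76.4 ± 7.88 to 37.6 ± 8.58 CPM, the monoamine oxidase Maob from 31.1 ± 5.47 to 13.2 ± 2.12 CPM, the surface antigen Psca from 12.1 ± 1.79 to 4.11 ± 0.682 CPM, the cornified envelope precursor Sprr1a from 73.3 ± 9.75 to 35.1 ± 4.42 CPM, Krtap17-1, a keratin-associated protein, from 28.0 ± 5.87 to 11.1 ± 2.03 CPM and Arhgap40, a GTPase-activating protein, from 33.8 ± 3.43 to 16.5 ± 1.97 CPM. Their log2 fold changes were between -1.56 for Psca and -1.05 for Arhgap40 and Itga7. Groups did not overlap for any of these 8 lower genes, as for 3.54% of all tested genes on the lower side. The 8 were picked for a small padj and a fall in each mouse, so this is not separate evidence.

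Several pathways gave few calls or none. No S phase gene of 29, no G2 and M phase gene of 32 and no p53 target of 24 was called, and the proliferation marker Mki67 was at 703, 699.9, 707 and 711 CPM in vehicle and 677, 661, 622 and 719 CPM in IPFc libraries (log2 fold change -0.08, padj 0.71). At an unadjusted p under 0.05, 5 of these 85 genes passed, beside 2695 of all 17927 tested genes, and DESeq2 called none. Of 18 MHC presentation genes, likewise none was called. Of 25 genes of the unfolded protein response, 5 were called higher and none lower, a count of 11 without mouse 3 and of 2 without mouse 1. After subtraction 2 were called higher, and the median log2 fold change of the list was 0.21, against 0.20 before. The chaperone Hsp90b1 rose from 1246 ± 148 to 1522 ± 113 CPM (log2 fold change 0.29, padj 0.018), with an expected carry-over of 50.5% and, after subtraction, a log2 fold change of 0.25 and no call. Of 19 Notch pathway genes, 4 were called lower, or 2 without mouse 1 or without mouse 4, among them the ligand Dll1 (4.79 ± 1.93 to 2.33 ± 0.878 CPM) and the receptor Notch1 (56.6 ± 5.87 to 39.4 ± 7.99 CPM), and neither call was kept after subtraction, with log2 fold changes of -1.01 and -0.49 against -1.05 and -0.55 before. Of 14 EGF receptor ligands and receptors, 3 were called higher and 2 lower. The ligands Ereg (70.9 ± 12.7 to 126 ± 24.3 CPM, log2 fold change 0.82, padj 1.0e-06) and Areg (146 ± 8.93 to 190.1 ± 24.4 CPM, 0.37, padj 0.0026) rose, and both calls held after subtraction, while the ligands Nrg1 (115 ± 8.84 to 89.8 ± 6.86 CPM, -0.36, padj 0.0045) and Tgfa (50.0 ± 3.37 to 40.4 ± 1.49 CPM, -0.31, padj 0.047) fell. The call for Nrg1 was lost without mouse 1, and that for Tgfa without mouse 1, 2 or 4 and after subtraction. Tgfb2, which encodes a TGF-β isoform, fell from 36.4 ± 4.38 to 19.3 ± 5.38 CPM (log2 fold change -0.95, padj 2.4e-06).

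IPFc shared IL-1β and TNFα with EC, by the labels also IL-8, and TGF-β with the third treatment, and the direct contrasts between treatments were tested in 1 model of all 15 epithelial libraries. Against EC there were 751 DEGs among 18024 tested genes (4.17%), 433 higher (2.40%) and 318 lower (1.76%) under IPFc, and 451, 495 or 472 without mouse 1, 2 or 3. Chil4 was at 0.415 ± 0.334 CPM under EC, so that the contrast (log2 fold change of IPFc against EC) was 13.12 (SE 0.24, padj 1.8e-17), and Clca1 was at 0.229 ± 0.167 CPM, a contrast of 8.74 (SE 0.21, padj 3.4e-17). Retnla was at 84.2 ± 27.8 CPM under EC and 134 ± 31.2 CPM in vehicle, with a contrast of 3.47 (SE 0.17, padj 9.8e-12). Slc26a4 was 29.6 ± 7.97 CPM under EC (contrast 3.01, SE 0.21, padj 2.4e-09). Of 32 IL-4 and IL-13 response genes, 15 were called higher and 5 lower under IPFc than under EC. In the other direction, Cxcl5 was at 1291 ± 319.7 CPM under EC and 139.7 ± 43.5 CPM under IPFc (contrast -3.26, SE 0.12, padj 1.5e-13). Lcn2, the iron-trapping lipocalin, was at 221 ± 48.9 CPM under EC and 17.2 ± 5.23 CPM under IPFc (contrast -3.74, SE 0.15, padj 5.6e-13), and Pigr was higher under EC as well (contrast -1.49, SE 0.12, padj 3.6e-08). Of the NF-κB targets, none was called higher and 9 were called lower under IPFc than under EC. Muc5b was at 169.8 ± 129.7 CPM under EC, with a contrast of 0.71 (SE 0.19, padj 0.039). Shares of fibroblast RNA were 5.34 to 16.8% under EC and overlapped those under IPFc.

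Against TGF-β alone the differences were far wider, with 6713 DEGs (37.20% of 18024 genes), 3345 higher (18.60%) and 3368 lower (18.70%) under IPFc. The fibroblast share was 25.9 to 31.7% in the 3 TGF-β libraries, above every IPFc library, and the part of this gap in the contrast was not tested. Chil4 had no reads under TGF-β in any of the 3 libraries and Retnla was at 3.11 ± 1.45 CPM, against 967 ± 308 CPM under IPFc (contrast 8.45, SE 0.26, padj 3.0e-15). Agr2 was at 1.99 ± 1.63 CPM under TGF-β and differed by 5.95 (SE 0.19, padj 5.4e-15). Rgs4 was at 56.4 ± 14.7 CPM under TGF-β and 100.2 ± 68.2 CPM under IPFc (contrast 0.87, SE 0.23, padj 0.0043). Acta2 was at 252 ± 49.4 CPM under TGF-β and 13.2 ± 5.39 CPM under IPFc (contrast -4.40, SE 0.19, padj 7.0e-13), and Ccn2, a matricellular growth factor, at 402 ± 46.2 and 101 ± 9.53 CPM (contrast -1.97, SE 0.09, padj 1.1e-12). Of 40 TGF-β targets, 2 were called higher and 31 lower under IPFc than under TGF-β. S phase and G2 and M phase genes were called higher under IPFc than under TGF-β in 20 of 29 and 20 of 32 cases, Mki67 with a contrast of 0.52 (SE 0.14, padj 0.0044).

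**Figure D5:**
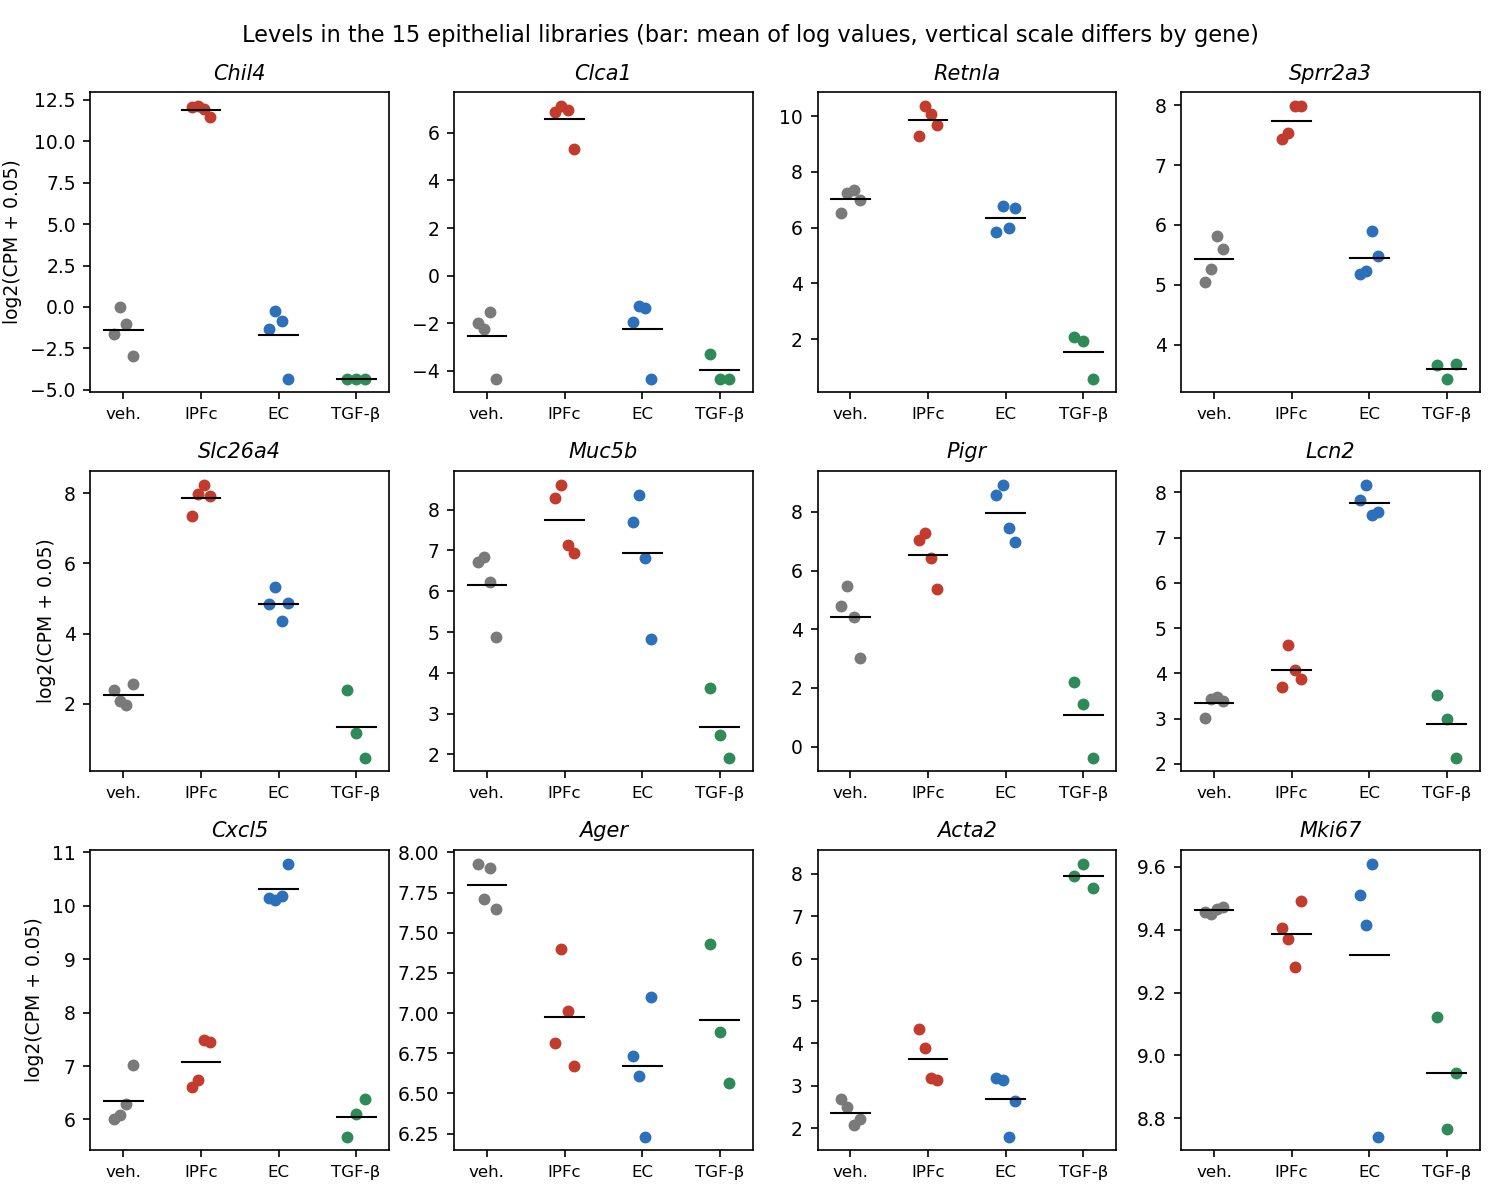
Level of 12 genes as log2(CPM + 0.05) in the 15 epithelial libraries under vehicle, IPFc, EC and TGF-β (n = 4, 4, 4 and 3), with the mean of the log values as a bar. Chil4 and Clca1 are high in the 4 IPFc libraries alone, Lcn2 and Cxcl5 are highest under EC, and Acta2 is highest under TGF-β.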

How the data were processed

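RNA of the Epcam+ fraction was sequenced from NEBNext Ultra II Directional libraries. The authors trimmed reads with Trimmomatic 0.30 and deposited raw read counts per Ensembl gene, 1 file per library. The labels name GRCm39 and the study's methods GRCm38, and aligner and counter are not given in the sources used here. The submitters' notes also name DESeq2 1.34.0. Groups came from the labels, and the same mouse number marks cultures of the same animal. Deviations from the group means correlated at 0.0595 to 0.345 within mice.

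Genes whose raw counts averaged 1 or more were tested with edgeR 4.0.16 (limma 3.58.1, R 4.3.3; TMM, quasi-likelihood, mouse as a block), and padj is after Benjamini and Hochberg. Total counts, 12402492 to 20317181, set the precision. The fibroblast share was the median ratio of CPM between an epithelial and its fibroblast library over listed fibroblast genes that reached 50 CPM in the fibroblast library, and share times fibroblast counts were subtracted before a second test. Named genes were the 15 of each direction with the smallest padj, an absolute log2 fold change over 1 and 1 direction in all 4 mice, members of the gene lists, and the top 5 of each direction in the contrasts. Results for some genes are not reported here. Members and lists were chosen with earlier results of these data known. Alternatives were other filters, size factors, DESeq2 1.42.0, no block, all 15 libraries, robust estimation, subtraction and leaving out each mouse. The code was tested on simulated data.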

Additional observations from a re-analysis of the deposited data

How the results depend on the processing

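The number of IPFc DEGs (1065) stayed within 1.5 times of its value with 3 other filters on low counts, size factors of DESeq2, DESeq2 itself and robust estimation (862 to 1297). The blocked design mattered most. An unpaired fit, with no block for the mouse, gave 274 DEGs, 158 higher and 116 lower, and the share of fibroblast RNA gave p = 0.2 in an exact permutation test. The model of all 15 libraries gave 276 lower DEGs. Subtraction of the fibroblast share gave 392 DEGs, 204 higher and 188 lower. With 1 mouse left out, the counts ranged from 722 to 1549 for all, 439 to 932 for higher and 271 to 617 for lower DEGs, and the difference in fibroblast share from 3.48 to 6.88 percentage points. The contrast with EC had 422 DEGs without the block and 451 to 740 with 1 mouse left out, and that with TGF-β 4876 to 6228. Of the 30 genes named for the smallest padj, 29 kept their call without the block and 29 after subtraction, and all 30 under each other alternative. Of 233 called genes that the text or the lists name, 77 kept their call without the block and 114 after subtraction, and 178 to 220 with 1 mouse left out. After subtraction alone, 14 of them changed sign on the log2 scale, fitted on what remained of their counts: Spp1 -1.75, Tgm2 -0.18, Ccl2 -6.45, Masp1 -3.54, Lox -0.40, Hmga2 -8.41, Col1a2 -1.14, Col5a2 -0.041, Col6a3 -9.31, Fbn1 -0.56, Serpinf1 -0.36, Ddr2 -1.14, Timp1 -0.69 and Egfr -0.81. Depth limits the genes near 1 read per library, where a missing call does not show that a gene was unchanged.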

Other observations

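Further gene groups showed smaller changes of epithelial cells exposed to IPFc, with padj from edgeR's quasi-likelihood test throughout. Of 15 receptors for factors of the cocktail, 5 were called higher and 1 lower, and 2 and none after subtraction of the fibroblast share. Il1rl1, the IL-33 receptor ST2, was at 3.41, 1.84, 1.67 and 2.18 CPM in the vehicle and 7.66, 8.16, 6.20 and 9.24 CPM in the IPFc libraries of mice 1 to 4 (log2 fold change 1.79, SE 0.22, padj 1.8e-06). Socs2, a feedback inhibitor of JAK/STAT signalling, rose from 81.6 ± 9.95 to 115 ± 12.4 CPM (log2 fold change 0.48, padj 5.1e-04), as 1 of 2 called among 18 genes of that list. Of 22 tight and gap junction genes, 2 were called higher and 4 lower, and 2 and 1 after subtraction. Gjb2, the gap junction protein connexin 26, was at 6.96, 9.37, 7.48 and 8.22 CPM in vehicle and 22.3, 19.5, 23.8 and 20.9 CPM in IPFc libraries (log2 fold change 1.43, SE 0.14, padj 4.9e-08), with no overlap of the groups, while Cgn, the tight junction protein cingulin, fell from 351 ± 39.1 to 242 ± 6.15 CPM (log2 fold change -0.54, padj 1.9e-05). Of 33 genes for basement membrane, integrins and matrix proteases, 6 were called higher and 5 lower. After subtraction, none of 31 tested was called higher and 4 were called lower. Lama3, a laminin chain of epithelial basement membranes, fell from 18.7 ± 8.63 to 11.5 ± 5.82 CPM (log2 fold change -0.72, padj 6.7e-04). Of 26 Wnt pathway genes, 3 were called in each direction, and 2 in each direction after subtraction. The ligand Wnt4 fell from 19.9 ± 4.08 to 10.2 ± 2.93 CPM (log2 fold change -0.99, padj 1.2e-05), and the secreted inhibitor Sfrp1 rose from 3.87 ± 1.10 to 8.59 ± 2.54 CPM (log2 fold change 1.12, padj 2.2e-04). All of these named genes kept their call after subtraction of the fibroblast share. Over all alternatives, however, the log2 fold change reached 7.46 for Il1rl1 and 2.73 for Sfrp1, against at most 2.03 and 1.26 with 1 mouse left out.

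Of 23 genes of transitional alveolar cells, 2 were called higher and 4 lower, and the lower ones included Krt19, a keratin of simple epithelia, from 3591 ± 352 to 2642 ± 174 CPM (log2 fold change -0.45, padj 4.1e-05), and Lgals3, the lectin galectin-3, from 659.6 ± 60.4 to 497 ± 45.6 CPM (log2 fold change -0.42, padj 2.0e-04). Of 15 arachidonic acid pathway genes, 3 were called higher and none lower. Of 27 genes of cholesterol and fatty acid synthesis, 3 were called higher, a count of 0 without mouse 1 or without mouse 4. Of 29 genes of glycolysis and hypoxia, 3 were called higher and 1 lower. Of 12 endothelial genes, 1 (Vwf) was called higher, and the summed level of that list was 20.7 to 26.9 CPM in vehicle and 22.2 to 34.9 CPM in IPFc libraries.

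Some genes, chosen after their values were seen, had large ratios on few reads. Msx3, a homeobox gene, had 0 reads in all 4 vehicle libraries and 154 in the IPFc libraries, which is at least 12.6-fold higher against a floor of 3 reads per library. Retnlb, a resistin-like protein of goblet cells, had 2 reads in vehicle and 168 in IPFc libraries, a ratio of 86.6 of summed CPM (95% exact interval 23.6 to 721, counting error only). Crispld2, a secreted protein, had 1 read in vehicle and 292 in IPFc libraries (ratio 301, 53.6 to 11935).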
